A study of Mus musculus with 2 samples.

Results

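Dbp, Tef, Hlf, Nfil3, Wee1 and Usp2 are genes whose transcription the circadian clock of the liver drives, and their transcripts were compared in livers of mice with and without an injury of the kidneys. They were found as the probe sets whose platform annotation names exactly 1 gene, that gene being 1 of the 6, which gave 12 probe sets for 6 genes among 18193 genes named in this way. The genes were picked with their differences between the pools already known, so the values below describe those differences and no test supports the choice. The first 4 encode transcription factors, whereas Wee1 encodes a protein kinase and Usp2 a ubiquitin protease.

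One liver pool came from 3 male wild-type C57BL/6 mice, 8 weeks of age, whose kidneys on both sides were made ischaemic for 30 minutes at body warmth and then reperfused (the renal ischaemia-reperfusion pool, renal IRI pool). The other came from 3 such mice that had sham surgery (the sham pool). Livers were taken 24 hours after surgery in both cases, and the clock time of surgery or of sampling is not given in the labels. Each pool was hybridised to 1 Affymetrix array, so there are 2 samples, no replicate error and no p-value, and a difference between mice of a group cannot be seen. In whole liver, fewer cells of a type and less RNA per cell cannot be told apart.

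The signal is the authors' scaled linear intensity of a probe set, with an array median of 254.1 in the renal IRI pool and 257.0 in the sham pool. Differences are given as log2 of the signal plus 16, renal IRI minus sham, which understates the change of dim probe sets, and folds are on the same scale. A probe set was used if its brighter signal reached the median of that array, and a gene was read by its brightest such probe set, which gave 13117 genes. A signal under the array median gives only a bound on the fold. Over the genes read by several probe sets, the probe sets of a gene disagreed with an SD of 0.72 in this difference. This SD is the only measure of spread at hand, and it holds no variation between mice, pools or arrays. The liver label fits the arrays, since all 7 measured hepatocyte markers, albumin among them, were above both array medians.

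The clock is a loop in which CLOCK and BMAL1 bind E-boxes in DNA and switch on the Per, Cry and Nr1d genes, whose products then hold CLOCK and BMAL1 or the Bmal1 gene in check. Dbp, Tef and Hlf encode the PAR bZIP factors, named after a proline and acidic amino acid rich domain beside a basic leucine zipper, and they activate genes through D-boxes. NFIL3, also called E4BP4, is a bZIP repressor that binds the same D-boxes, and the activators and the repressor peak at opposite times of day in mouse liver. The PAR bZIP factors are known in liver for driving genes of drug and haem metabolism.

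Most of the 6 genes were lower after renal ischaemia-reperfusion, and the repressor Nfil3 was higher. Dbp, Hlf, Wee1 and Usp2 had a signal at least 2-fold lower, as did 9.59% of all genes tested. Nfil3 had a signal at least 2-fold higher, as did 8.71% of all genes tested. Tef was lower by less than 2-fold. Among genes with both signals above their array medians, where 6.17% were lower and 5.14% higher by 2-fold or more, Dbp, Hlf and Usp2 still counted as lower and Nfil3 as higher. The median log2 difference of the 6 genes was -1.22, against -0.01 over all genes, and nothing follows from this median since the genes were chosen on these differences.

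Dbp, the PAR bZIP gene whose transcript is known for the widest daily swing in liver, had the largest difference of the 3 activators. Its probe set 1418174_at had a signal of 308.5 in the renal IRI pool and 5010.6 in the sham pool, 15.5-fold lower (log2 difference -3.95). The signal after renal ischaemia-reperfusion was just above the array median. A second probe set, 1438211_s_at, whose suffix marks possible cross-hybridisation, had 235.5 in the renal IRI pool and 2296.9 in the sham pool. The first of these signals was under the array median, so this probe set gives a fold of at least 8.56 lower. By measured difference, Dbp ranked 17 from the lowest of the 13117 genes.

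Hlf encodes the hepatic leukaemia factor, named after a fusion gene of human leukaemia. Probe set 1434735_at had a signal of 813.8 in the renal IRI pool and 1849.8 in the sham pool, 2.25-fold lower. Probe set 1434736_at had 371.6 in the renal IRI pool and 979.7 in the sham pool, 2.57-fold lower. The log2 differences of -1.17 and -1.36 lay 0.19 apart, and all 4 signals were above the array medians.

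Tef encodes the thyrotroph embryonic factor, first found in the pituitary. Probe set 1424175_at had a signal of 2702.1 in the renal IRI pool and 4857.2 in the sham pool, 1.79-fold lower (log2 difference -0.84). The other 2 probe sets were under the median on both arrays, with 166.2 and 93.3 in the renal IRI pool and 147.5 and 110.9 in the sham pool, so no fold is given for them. Tef therefore rests on 1 probe set. The difference of Dbp was 3.11 log2 units below that of Tef and 2.78 below that of Hlf, whereas Hlf and Tef lay 0.33 apart, less than the disagreement between probe sets of a gene.

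Nfil3 was the only one of the 6 with a higher signal after renal ischaemia-reperfusion. Its single probe set, 1418932_at, had 1032.7 in the renal IRI pool and 483.8 in the sham pool, 2.10-fold higher (log2 difference 1.07). Both signals were above the array medians. The log2 difference of the repressor Nfil3 was 5.02 above that of the activator Dbp.

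**Figure D1:**
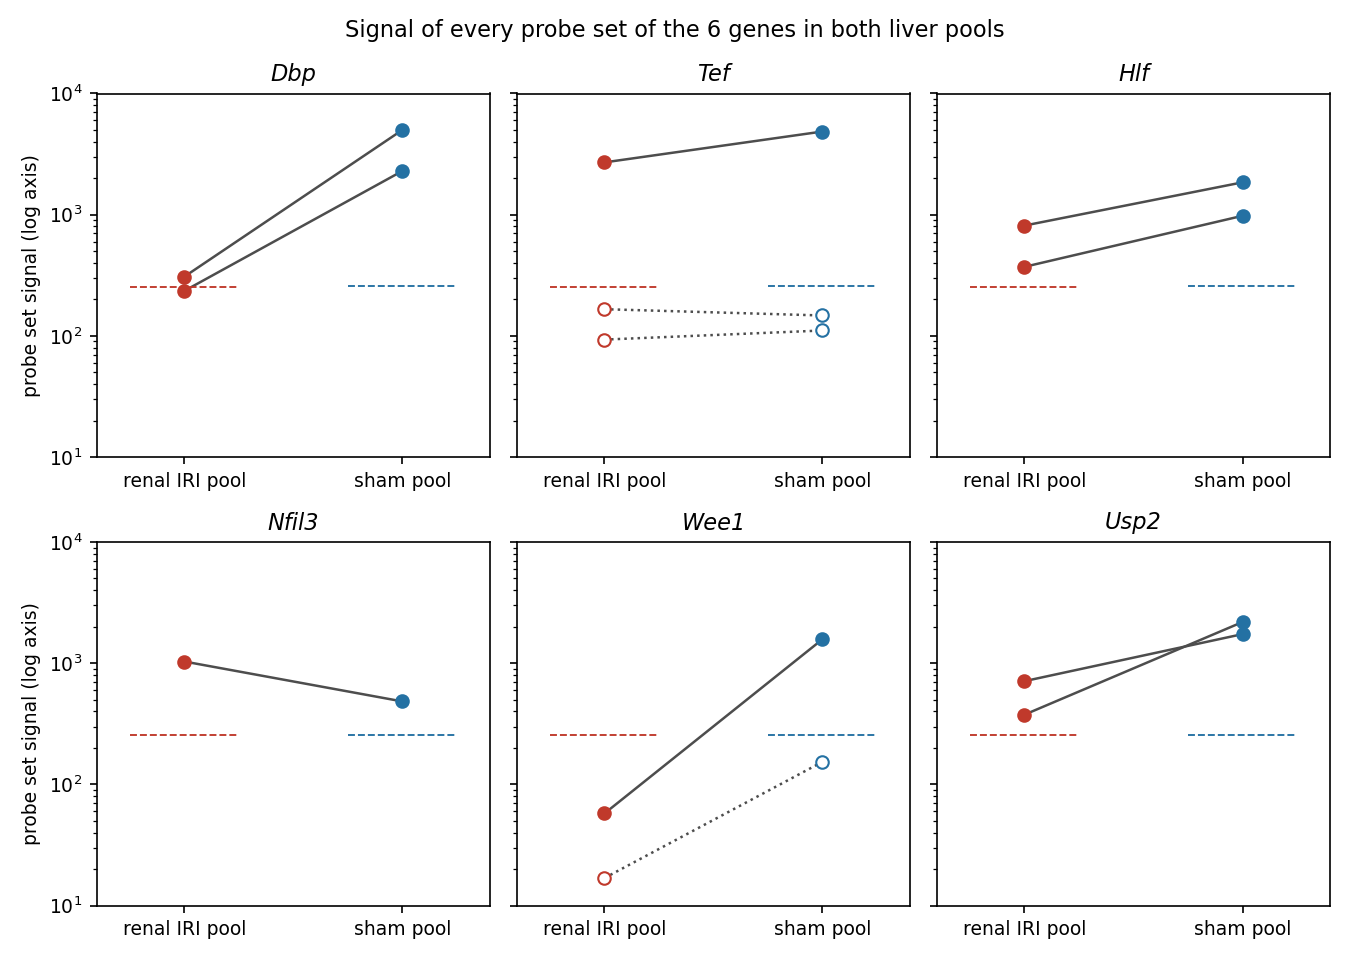
Signal of all 12 probe sets of the 6 genes (log axis) in the renal IRI pool (left) and the sham pool (right), 1 array each; a line joins the signals of a probe set, dashed marks are the array medians of 254.1 and 257.0, and open points with dotted lines are the 3 probe sets under the median on both arrays. All lines drawn solid run lower in the renal IRI pool except that of Nfil3, which has 1032.7 there and 483.8 in the sham pool.

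The promoters of the 4 transcription factor genes are shown because 3 of the genes were lower and Nfil3 higher, and because the clock is known to act on such genes through short DNA motifs. RefSeq windows (GRCm38.p6) were at hand for 5 of the 6 genes, each with 250 bases before and 50 bases after a transcription start, and Tef had 2 of them. Each was searched on both strands for the E-box CACGTG, the D-boxes TTATGTAA and TTACGTAA, the cyclic AMP response element TGACGTCA and the element AGGTCA, which nuclear receptors such as the REV-ERB and ROR proteins bind. Capitals mark a match in the sequences, which run 5′ to 3′ on the strand of the gene. They lie at chr7:45704997-45705296 (plus strand, Dbp), chr15:81802423-81802722 and chr15:81811164-81811463 (plus strand, Tef), chr11:90390868-90391167 (minus strand, Hlf) and chr13:52980990-52981289 (minus strand, Nfil3).
Dbp: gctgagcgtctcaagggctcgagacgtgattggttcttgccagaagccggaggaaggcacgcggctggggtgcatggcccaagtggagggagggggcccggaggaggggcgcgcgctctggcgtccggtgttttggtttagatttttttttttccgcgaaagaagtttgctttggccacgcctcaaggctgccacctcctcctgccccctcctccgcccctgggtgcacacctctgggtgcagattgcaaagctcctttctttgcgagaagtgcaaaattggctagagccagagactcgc
Tef, upstream start: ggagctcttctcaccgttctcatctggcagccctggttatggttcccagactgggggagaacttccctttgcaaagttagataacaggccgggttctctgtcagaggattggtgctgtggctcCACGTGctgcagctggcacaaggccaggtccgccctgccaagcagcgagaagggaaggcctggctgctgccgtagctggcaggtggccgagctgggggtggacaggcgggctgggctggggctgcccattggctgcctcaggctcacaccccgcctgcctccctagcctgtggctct
Tef, downstream start: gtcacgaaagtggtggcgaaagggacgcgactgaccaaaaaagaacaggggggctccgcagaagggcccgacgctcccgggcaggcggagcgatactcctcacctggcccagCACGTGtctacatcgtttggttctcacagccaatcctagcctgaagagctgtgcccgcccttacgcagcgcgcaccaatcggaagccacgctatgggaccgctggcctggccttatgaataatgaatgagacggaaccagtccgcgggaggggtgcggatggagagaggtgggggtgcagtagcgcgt
Hlf: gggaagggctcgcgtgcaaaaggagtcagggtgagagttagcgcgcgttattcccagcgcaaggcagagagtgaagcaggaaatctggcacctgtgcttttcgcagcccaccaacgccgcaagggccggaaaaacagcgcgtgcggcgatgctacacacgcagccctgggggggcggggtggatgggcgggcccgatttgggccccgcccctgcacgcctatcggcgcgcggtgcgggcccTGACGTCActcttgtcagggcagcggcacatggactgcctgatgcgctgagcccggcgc
Nfil3: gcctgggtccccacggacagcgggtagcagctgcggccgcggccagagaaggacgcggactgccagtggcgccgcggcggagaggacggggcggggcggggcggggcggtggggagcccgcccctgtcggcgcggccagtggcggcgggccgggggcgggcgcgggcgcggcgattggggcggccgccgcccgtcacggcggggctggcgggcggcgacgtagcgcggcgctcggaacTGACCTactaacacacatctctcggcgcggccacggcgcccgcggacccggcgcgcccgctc

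Each window of Tef held 1 E-box, which 7.15% of all 32851 promoter windows of this length held. The window of Hlf held 1 cyclic AMP response element ending 2 bases before the start, found in 1.79% of all windows. The window of Nfil3 held AGGTCA on the opposite strand, as TGACCT, found in 16.3% of all windows. No window of the 5 genes held either form of the D-box, and 1.06% of all windows did. None of the motifs was in the windows of Dbp and Usp2, which says only that these letters are not in these 300 bases. These matches are descriptions of sequence and are not evidence of binding.

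Wee1 encodes the kinase that holds back mitosis by phosphorylating CDK1. Its transcription in mouse liver is known to be under clock control through E-boxes. Probe set 1416773_at had a signal of 57.6 in the renal IRI pool and 1577.8 in the sham pool. The signal in the renal IRI pool was under the array median, so the fold is given as at least 5.90 lower. Its measured log2 difference of -4.44 was below that of Dbp, but the order turned with a pseudocount of 64 (Wee1 -3.76, Dbp -3.77) and with dim signals raised to the median (Wee1 -2.56, Dbp -3.95). Probe set 1416774_at was dim on both arrays, with 16.9 in the renal IRI pool and 153.7 in the sham pool, and gives no fold.

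The genes that act with Wee1 at entry into mitosis were mostly too dim to read. Of 12 such genes, 11 were on the array and 5 had a usable signal (median log2 difference -0.33). None of the 5 differed by 2-fold in either direction, against 18.3% of all genes tested. Cdc25a, a phosphatase that opposes WEE1, had 680.4 in the renal IRI pool and 387.3 in the sham pool (0.79). Its relative Cdc25b had 271.5 in the renal IRI pool and 401.6 in the sham pool (-0.54). Cdk2, a kinase of S phase entry, had 719.9 in the renal IRI pool and 729.7 in the sham pool (-0.02). Wee2, a Wee1 relative of oocytes, had 141.7 in the renal IRI pool and 263.7 in the sham pool, with possible cross-hybridisation of its probe set. Cdk1 itself, the target of WEE1, was under the median on both arrays with 77.6 in the renal IRI pool and 103.8 in the sham pool.

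Usp2 encodes a protease that removes ubiquitin from proteins and whose transcript is rhythmic in many mouse tissues. Probe set 1417169_at had a signal of 711.3 in the renal IRI pool and 1738.2 in the sham pool, 2.41-fold lower (log2 difference -1.27). Probe set 1417168_a_at had 376.3 in the renal IRI pool and 2187.2 in the sham pool, 5.62-fold lower (log2 difference -2.49). Both probe sets were lower and above the array medians, but they lay 1.22 log2 units apart, so the size of the difference of Usp2 is uncertain by more than 2-fold.

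By their brightest probe sets, few other genes of the ubiquitin-specific protease family differed by as much. Of the 44 other Usp genes with a usable signal, measured signals put 1 lower and 1 higher by 2-fold or more. Among all genes tested 9.59% were lower and 8.71% higher. The median log2 difference of the 44 genes was -0.11. The lowest was Usp10, with 866.9 in the renal IRI pool and 2107.3 in the sham pool (-1.27), the same difference as Usp2 to 2 decimals. Usp15 followed at -0.97, with possible cross-hybridisation of its probe set. The highest were Usp43, at least 1.03-fold higher with a dim signal of 111.5 in the sham pool, and Usp1 at 0.76. Less bright usable probe sets of some Usp genes went further by measured signals. The lowest of Usp46 stood at -2.93, against 0.32 by its brightest, and the highest of Usp1 stood at 2.57.

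**Figure D2:**
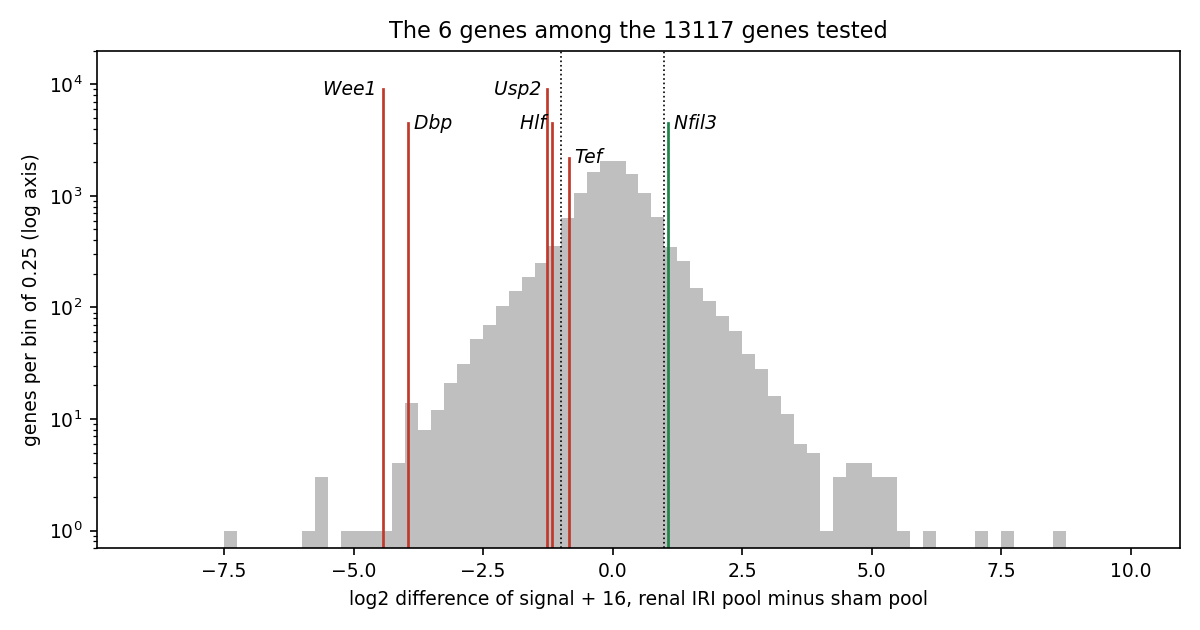
Log2 differences (renal IRI minus sham) of all 13117 genes tested, in bins of 0.25 with the number of genes on a log axis; vertical lines mark the 6 genes (red lower, green higher) and dotted lines 2-fold. Wee1 at a measured -4.44 and Dbp at -3.95 lie in the far lower tail, Usp2, Hlf and Tef between -1.27 and -0.84, and Nfil3 at 1.07. The signal of Wee1 in the renal IRI pool was under the array median, so its fold is only known as at least 5.90 lower.

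By measured log2 difference, the genes listed next to Dbp were Wdtc1 (-3.98) and Kynu (-3.97), which were next lower, and Acsm5 (-3.92) and Exph5 (-3.89), which were next higher. Kynu encodes kynureninase, an enzyme of tryptophan breakdown. All 4 had a signal under the array median in the renal IRI pool, so their folds are only bounds, from at least 2.03-fold lower for Exph5 to at least 8.37-fold lower for Kynu. Their place next to Dbp is therefore not established.

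The core clock genes had smaller differences than Dbp and Wee1 by their brightest probe sets. They were not set apart from Tef (-0.84), Hlf (-1.17), Usp2 (-1.27) and Nfil3 (1.07), since the core clock genes ran from -1.41 to 0.94. Of the 18 genes of this list, 14 had a usable signal, with a median log2 difference of -0.18. By 2-fold or more, 1 of the 14 (7.14%) was lower and 0 were higher, against 9.59% and 8.71% of all genes tested. No test of a difference between these lists is possible with 1 array per group. Nr1d2, which encodes the repressor REV-ERBβ, was the 1 lower gene, with 1049.3 in the renal IRI pool and 2824.0 in the sham pool (-1.41). Its second probe set stood at -0.56, so the call rests on 1 probe set. Nr1d1, the gene of REV-ERBα, had 1154.5 in the renal IRI pool and 1484.6 in the sham pool (-0.36).

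Among the genes of the period and cryptochrome repressors, Per1 had the highest log2 difference, 0.94, with 1556.4 in the renal IRI pool and 805.2 in the sham pool. Per2 had 407.6 in the renal IRI pool and 486.5 in the sham pool (-0.25), and Per3 had 392.3 in the renal IRI pool and 525.2 in the sham pool (-0.41). The 4 usable probe sets of Per3 differed in sign. One stood at 0.37, and another was at least 1.03-fold higher, with 264.4 in the renal IRI pool and a dim 39.0 in the sham pool. Cry1 was at least 1.17-fold higher, with 304.4 in the renal IRI pool and a dim 167.6 in the sham pool. Cry2 had 696.2 in the renal IRI pool and 768.3 in the sham pool (-0.14). Neither the Per nor the Cry genes reached 2-fold by their brightest probe sets.

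Of the activators of the loop, Clock was at least 1.22-fold lower, with 151.9 in the renal IRI pool and 313.9 in the sham pool. That probe set passed the filter only through the sham pool. With no filter the direction of Clock turned to 0.26, by a probe set with 247.9 in the renal IRI pool and 204.8 in the sham pool, both under the array medians. Bmal1, named Arntl on the array, was unclear, since its 2 probe sets went opposite ways. Arntl had 899.6 in the renal IRI pool and 1126.7 in the sham pool (-0.32) by the brighter one. By the other, Arntl was at least 1.80-fold higher, with 476.1 in the renal IRI pool and a dim 69.5 in the sham pool. Npas2, a relative of Clock, and Ciart, a repressor of the loop, were dim on both arrays. The nuclear receptor gene Rora stood at -0.22 and the repressor genes Bhlhe40 and Bhlhe41 at 0.83 and -0.03. The kinase genes Csnk1e and Csnk1d, whose products phosphorylate PER proteins, stood at 0.46 and 0.77. The 5 probe sets of Csnk1d differed in sign, from -0.64 to at least 4.95-fold higher for a probe set with a dim 74.6 in the sham pool.

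Other genes known to be rhythmic in liver were spread widely. Of 12 such genes, 7 were lower and 3 higher by 2-fold or more, against 9.59% and 8.71% of all genes tested, with a median log2 difference of -1.09. The list was drawn up with earlier results of these arrays known, so its counts are a description. Upp2, a uridine phosphorylase, and Lpin1, a phosphatidate phosphatase, were the lowest at -5.70 and -2.67, the first with possible cross-hybridisation of its probe set. Lpin1 had 1483.2 in the renal IRI pool and 9526.3 in the sham pool. The highest were Insig2, which restrains sterol synthesis, and Avpr1a, a vasopressin receptor, at 2.12 and 1.23. Insig2 had 10155.9 in the renal IRI pool and 2319.1 in the sham pool. The direction was not shared by all genes of this list.

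Genes reported as targets of the PAR bZIP factors were lower in part. Of 14 listed genes, 11 had a usable signal, 5 of them were lower and 1 higher by 2-fold or more, against the same shares of all genes, with a median log2 difference of -0.31. Cyp7a1, the first enzyme of bile acid synthesis, was the lowest at -3.19, with 640.4 in the renal IRI pool and 5989.3 in the sham pool. Cyp2c37, a cytochrome P450, had 2786.3 in the renal IRI pool and 11900.8 in the sham pool (-2.09). Alas1, the first enzyme of haem synthesis, was the highest at 1.03, with 20446.3 in the renal IRI pool and 10034.2 in the sham pool, and its other probe set stood at -0.21. Acot3, an acyl-CoA thioesterase, stood at 0.42, with possible cross-hybridisation of its probe set. Por and 2 Cyp2a genes of the list are not analysed here.

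**Figure D3:**
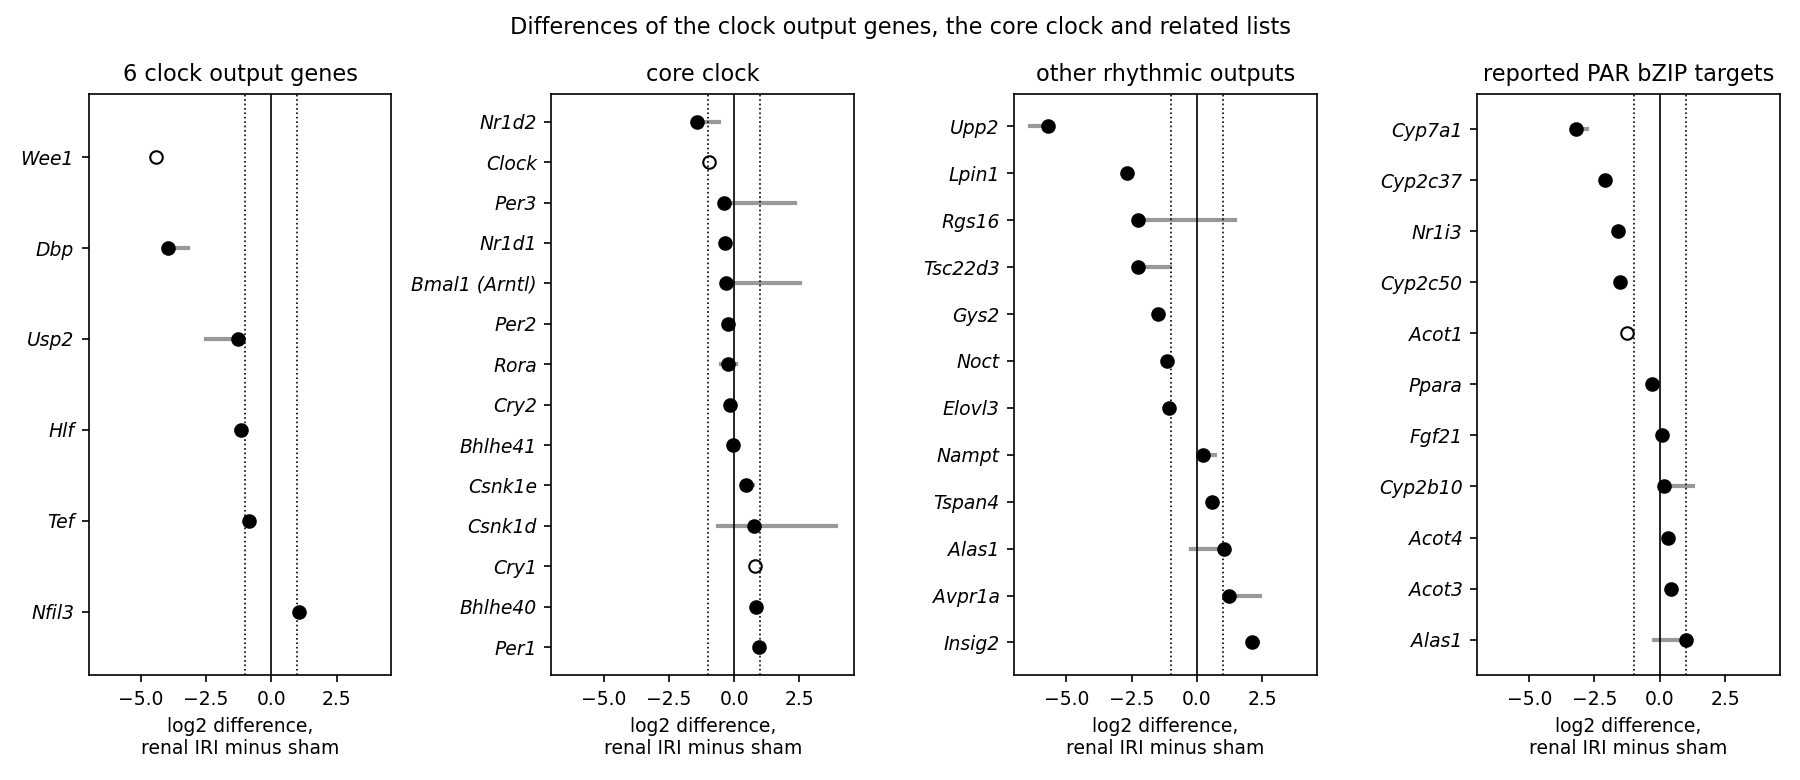
Log2 differences (renal IRI minus sham) of the 6 clock output genes, the core clock genes, other rhythmic genes and reported PAR bZIP targets, 1 point per gene by its brightest probe set; grey lines span the measured differences of all usable probe sets, dim ones included, open points have a signal under the array median in 1 pool, and dotted lines mark 2-fold. Of the core clock genes, 1 of 14 lies past 2-fold, as do 18.3% of all genes tested. Of the 6 clock output genes 5 do, but these were chosen on their differences, so no contrast between the lists follows.

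The 6 differences kept their sign under all 13 alternative settings that gave a value, or 12 for Wee1, which left the set when both signals had to reach the median. Not all of these settings could change a value. The other filters and the removal of probe sets with possible cross-hybridisation read each gene they kept by the same probe set. Tef, Nfil3 and Wee1 had 1 usable probe set each, so the choice of probe set could not move them either. Wee1 ranged from -4.75 to -2.56, Dbp from -4.24 to -3.20, Hlf from -1.45 to -1.12 and Usp2 from -1.88 to -1.22. No setting read Usp2 by its probe set 1417168_a_at alone, which stood at -2.49. Tef and Nfil3 lay near 2-fold, and their calls depended on the scaling. All 18 probe sets for bacterial hybridisation controls were brighter on the renal IRI array, by a median of 0.28 log2 units. With them as the reference, every difference shifted by -0.28, Tef passed 2-fold at -1.13 and Nfil3 no longer did at 0.78. On that reference 15.4% of all genes were lower and 5.76% higher by 2-fold or more, in place of 9.59% and 8.71%.

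**Figure D4:**
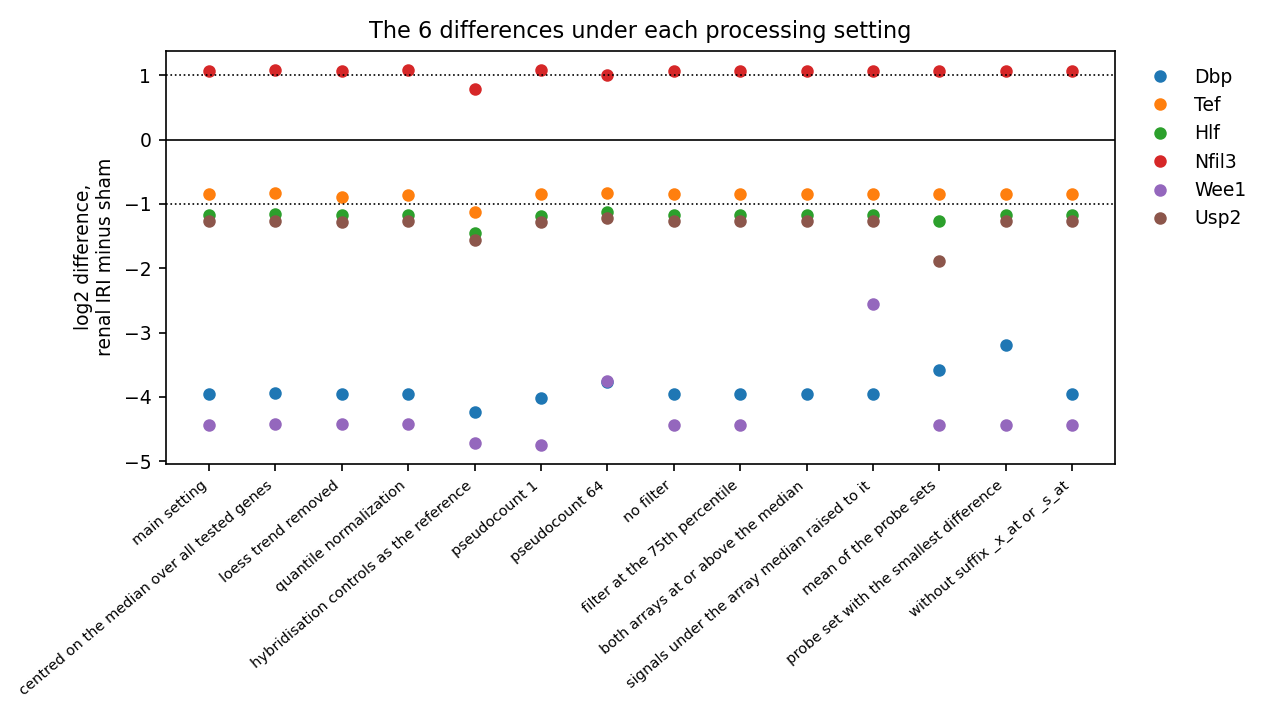
Log2 differences (renal IRI minus sham) of the 6 genes in the main setting and under each alternative other than the thresholds of 1.5-fold and 3-fold. Dotted lines mark 2-fold. The other filters and the removal of probe sets with possible cross-hybridisation left the values of the genes they kept unchanged. Points of a gene keep their sign in all settings, Wee1 has no value where both arrays had to reach the median, and Tef and Nfil3 change sides of 2-fold with the hybridisation controls as the reference.

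Markers of some other cell types also differed between the pools. The counts below stand beside 9.59% of all genes tested that were lower and 8.71% that were higher by 2-fold or more. All 7 measured markers of pancreatic acinar cells were higher in the renal IRI pool, 6 of them at least 2-fold, and their summed signal was 10821.5 in the renal IRI pool and 4278.7 in the sham pool. Of these 6, 3 were bright on both arrays, and the rest were dim in the sham pool and passed the filter only through the renal IRI pool. All 3 usable markers of bile duct cells were higher by measured signals of 2-fold or more, with a sum over 4 markers of 2453.3 in the renal IRI pool and 653.1 in the sham pool. Only 1 of the 3 was bright on both arrays, and the rest passed the filter only through the renal IRI pool, where they were high. Krt7, dim on both arrays, went the other way, with 32.0 in the renal IRI pool and 81.3 in the sham pool. Of 6 usable neutrophil markers, S100a8 and S100a9 were at least 2-fold higher, with a sum over 7 markers of 6206.3 in the renal IRI pool and 4127.0 in the sham pool. Both genes were dim in the sham pool, with 45.6 for S100a8 and 204.8 for S100a9, and passed the filter only through the renal IRI pool. The probe set of S100a8 has possible cross-hybridisation. Of 6 Kupffer cell markers 5 were lower and 1 at least 2-fold, with sums of 4008.3 in the renal IRI pool and 6938.0 in the sham pool. None of the 5 usable markers of T and natural killer cells, cells in which Nfil3 is also active, differed by 2-fold, and their sum over 7 markers was 3639.0 in the renal IRI pool and 3289.9 in the sham pool. Of 6 markers of sinusoidal endothelium, Lyve1 was 8.04-fold higher and Clec4g 2.08-fold lower, with sums of 7180.7 in the renal IRI pool and 6171.1 in the sham pool. Of 5 stellate cell markers 4 were lower and 1 by a measured 2-fold or more, with sums of 2943.2 in the renal IRI pool and 3412.9 in the sham pool. Of the 7 measured hepatocyte markers, 5 were higher by less than 2-fold, and of the 2 lower ones 1 was at least 2-fold lower. Their sums were 312604 in the renal IRI pool and 244646 in the sham pool. No marker in these lists was at 0. The part of such cells in the differences of the 6 genes was not tested.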

How the data were processed

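Liver RNA of 2 pools, each of 3 mice, was measured on 1 Affymetrix array per pool. Per the labels' protocols, Trizol was used to extract RNA, 6 ug of which gave the biotin-labelled cRNA. The deposited values are a linear intensity per probe set. Scaling had been done before deposit, since both arrays had a mean of 500.0 after trimming 2% from each end. Which software summarised the probes is not stated in the labels.

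Of 45037 probe sets that are not controls, 34945 had 1 gene in the platform annotation, 932 several and 9160 none; 34741 symbols were updated through the Entrez ID. Intensities became log2(intensity + 16). Of these, 21003 probe sets passed the filter. The members and lists were chosen with earlier results of these data known. Named genes were the 6 members, the core clock list, the 2 highest and 2 lowest genes of each other pathway list, and the 2 genes on each side of Dbp. Marker lists are given as counts and sums, with S100a8, S100a9, Lyve1, Clec4g, Krt7 and albumin named from them. Cdk1, Rgs16 and Krt7 were named, and an antisense and a GTPase-activating gene with Usp names left out, after values were seen. Alternatives concerned scaling (median, loess with span 0.3, quantile, hybridisation controls), pseudocounts of 1 and 64, filters, the choice of probe set and thresholds of 1.5-fold and 3-fold. The steps were tested on simulated data, with large changes planted in genes bright on both arrays and less noise than between real probe sets of a gene. That test checks the arithmetic only and says nothing on dim or disagreeing probe sets. Python 3.11.15, pandas 2.3.3 and statsmodels 0.14.6 were used. The number of arrays limits the precision.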

Additional observations from a re-analysis of the deposited data

How the results depend on the processing

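No paired analysis was possible because each group has 1 pooled sample, and leaving out a replicate was impossible for the same reason. Of 116 summary values under 15 alternatives, 95 stayed within 1.5 times the main count or share, or within the probe set SD of 0.72 of the main median, and 21 did not. Of 252 values of single member and core clock genes, 7 moved by more than that SD, and 3 of these changed sign: Clock to 0.26 with no filter, and Bmal1 (Arntl) to 1.10, past 2-fold, and Per3 to 0.55 by the mean of the probe sets. Rora, at -0.22, stood at 0.01 by the smallest difference, and the core clock median at 0.26 by the mean of the probe sets. With the hybridisation controls as the reference, 0 members were at least 2-fold higher, 2 core clock genes were at least 2-fold lower, and 15.4% of all genes were lower and 5.76% higher. A pseudocount of 1 and no filter each gave 2 lower core clock genes. With both arrays at or above the median, 6.17% of all genes were lower and 5.14% higher, and with dim signals raised to the median 5.59% were higher. By the mean of the probe sets, 0 core clock genes were lower and 1 higher, and by the smallest difference 0 were lower. At 1.5-fold, 2 core clock genes were lower and 4 higher, as were 19.3% and 18.7% of all genes. At 3-fold, 2 members were lower and 0 higher, 0 core clock genes were lower, and 4.49% of all genes were lower and 3.60% higher. These last changes follow from the threshold itself. Those with the hybridisation controls follow from the shift of every difference by -0.28, and the others from the signals or probe sets that each setting reads. Why probe sets of a gene disagree was not tested.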

Other observations

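Other bZIP factors of the liver went both ways. Of 11 such genes measured, 4 had a log2 difference below 0, 1 was lower and 3 higher by 2-fold or more, against 9.59% and 8.71% of all genes tested, and the median log2 difference was 0.53. Cebpa, a C/EBP factor of the quiescent hepatocyte, had a signal of 3945.9 in the renal IRI pool and 9330.7 in the sham pool, a log2 difference of -1.24. Cebpd, an acute phase member of the same family, had 1645.6 in the renal IRI pool and 419.5 in the sham pool (1.93), but its second probe set stood at -0.11. Xbp1, a factor of the unfolded protein response, had 32096.7 in the renal IRI pool and 10837.0 in the sham pool (1.57), with all 4 probe sets higher, the smallest by 0.02. Creb1, which binds cyclic AMP response elements, stood at -0.56 by its brightest probe set, and 2 of its 4 probe sets were lower.

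Probe sets of one rhythmic gene, Rgs16, a regulator of G protein signalling, went opposite ways. Rgs16 had 356.0 in the renal IRI pool and 1785.7 in the sham pool by its brightest probe set, 4.84-fold lower. By another probe set Rgs16 was at least 1.34-fold higher, with 349.6 in the renal IRI pool and a dim 115.2 in the sham pool.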
